A study of Mus musculus with 3 samples.

Results

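The data below concern 9 genes of retinoid (vitamin A) storage and metabolism in mouse liver, taken by symbol from the 32285 genes in the files: Lrat, Bco1, Rbp4, Ttr, Rdh16, Rdh16f2, Aldh1a1, Cyp26a1 and Rarb. All 9 were found. Single nuclei of frozen liver were sequenced in 3 libraries from C57BL/6N males that entered the study at the age of 8 weeks. The SD library came from mice on a standard diet. The MASLD library, named for metabolic dysfunction-associated steatotic liver disease, came from mice kept for 18 weeks on a diet and a sugar drink meant to bring on that disease. The Aza-TdC library came from mice on that diet and drink that also received 5-Aza-4'-thio-2'-deoxycytidine, a cytidine analogue that is built into DNA and lowers the methyltransferase DNMT1, by mouth at 2 mg per kg each day from week 14 to week 18. Each group had 1 library, and the sources used here do not say how many mice it held. No difference between groups therefore has a replicate check, no p-value is given, and all 95% intervals cover counting error only.

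Most of the body's retinoid lies in the liver as retinyl ester in the lipid droplets of hepatic stellate cells, where lecithin retinol acyltransferase, the product of Lrat, makes the ester. Hepatocytes take up dietary retinoid, release retinol into blood bound to retinol-binding protein (Rbp4) and transthyretin (Ttr), and oxidise retinol to retinaldehyde and then to retinoic acid. Retinoic acid acts through nuclear receptors such as RARβ (Rarb) and is cleared by Cyp26 enzymes, and both Rarb and Cyp26a1 are textbook targets of retinoic acid.

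Retinoic acid receptors bind direct repeats. The promoter windows of Rarb and Cyp26a1 are shown because, of the 8 members with a window, they alone held the repeat with the letters GNTCANNNNNNGNTCA. The windows run from 250 bases before to 50 bases after a RefSeq gene start in GRCm38.p6, and capitals mark the match.
Rarb (chr14:16575427-16575726, minus strand): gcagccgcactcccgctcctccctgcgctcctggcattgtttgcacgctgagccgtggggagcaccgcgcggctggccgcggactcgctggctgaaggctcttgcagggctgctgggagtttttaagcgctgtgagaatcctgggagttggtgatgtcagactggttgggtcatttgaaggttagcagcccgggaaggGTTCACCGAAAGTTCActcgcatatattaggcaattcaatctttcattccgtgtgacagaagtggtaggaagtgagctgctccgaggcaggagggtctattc
Cyp26a1 (chr19:37697558-37697857, plus strand): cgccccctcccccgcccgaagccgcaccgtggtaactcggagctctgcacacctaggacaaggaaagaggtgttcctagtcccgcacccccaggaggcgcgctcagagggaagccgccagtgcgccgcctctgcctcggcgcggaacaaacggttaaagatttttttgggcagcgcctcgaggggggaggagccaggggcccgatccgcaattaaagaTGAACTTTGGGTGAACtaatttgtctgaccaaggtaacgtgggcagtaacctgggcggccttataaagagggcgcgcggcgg
In Rarb the match lay on the gene's strand from base -52 to base -37, and in Cyp26a1 on the opposite strand from base -32 to base -17. Searched on both strands, the same letters occurred in 0.861% of 32851 promoter windows. The shorter repeats GNTCANNNGNTCA, in 1.12% of windows, and GNTCANNGNTCA, in 1.26%, can overlap each other or the longer one in other windows. The former was in no member's window, and the latter was in that of Bco1 on the opposite strand, as tgacctttgacc from base -56 to base -45. Windows were found for 8 of the 9 genes (10 windows), and Ttr had no window to search. A match describes the letters only.

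The libraries held 6928 to 7598 barcodes with median depths of 5849 to 6383 unique molecular identifiers (UMIs, counted molecules), and 9 to 15 barcodes were shared between any pair of libraries. Hepatocyte-like nuclei, named from marker genes that exclude the retinoid genes, numbered 6858, 6018 and 6744 in the SD, MASLD and Aza-TdC libraries. Stellate-like nuclei formed 1 cluster with 77, 106 and 84 nuclei in the same order, and 19 of 20 stellate markers, Reln, Hgf, Bmp5 and Colec11 among them, had UMIs there, while Ntrk2 had none in any library. Levels below are CPM, the UMIs of a gene for every 1000000 UMIs summed over the nuclei of a class. Hepatocyte-like nuclei of the 3 libraries fell almost wholly into different clusters, SD into clusters 0 to 3, MASLD into 14, 16, 17 and 18, and Aza-TdC into 12, 13, 15, 17, 18 and 19. The leading genes of clusters 14 and 16 each held 1 marker of another class (Spp1 and Themis) and no hepatocyte marker, so the comparisons of the class set these numbered clusters against each other.

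In hepatocyte-like nuclei on the MASLD diet, transcripts of the carrier Ttr and of the retinaldehyde dehydrogenase Aldh1a1 were 3.35-fold and 2.46-fold as high as on the standard diet, while Rdh16f2 was 7.64-fold lower and Cyp26a1 2.82-fold lower. Of the 9 genes, 4 (Lrat, Aldh1a1, Bco1 and Ttr) were at least 2-fold higher in MASLD than in SD, against 13.6% of all 15773 genes measured, and 2 (Rdh16f2 and Cyp26a1) were at least 2-fold lower, against 5.21%. The remaining 3, Rbp4, Rdh16 and Rarb, lay within 2-fold. Between Aza-TdC and MASLD only Rdh16f2 of the 9 was at least 2-fold higher, against 3.09% of 15938 genes, and none was at least 2-fold lower, against 5.14%. The median log2 ratio was 0.77 over the 9 genes and 0.15 over all genes for MASLD against SD, and -0.14 and -0.09 for Aza-TdC against MASLD. In each of these comparisons, scaling by the median of gene ratios instead of the total moved no member to the other side of 0 or of 2-fold. Both comparisons use the MASLD library, so a high or low value in it moves them in opposite directions. Set directly against SD, Aza-TdC had 3 of the 9 at least 2-fold higher (Lrat, Aldh1a1 and Bco1), against 10.5% of 15875 genes, and 2 lower (Rdh16f2 and Cyp26a1), against 5.15%. The count hangs on the threshold, with Bco1 at a log2 ratio of 1.01 (0.66 to 1.37) and Ttr at 0.97. Other scaling was not run for it, and the median of gene ratios was 0.05.

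Markers of other cells moved in the same hepatocyte-like nuclei. Of 5 red blood cell markers, 4 were at least 2-fold higher in MASLD than in SD (median log2 ratio 3.97) and 4 at least 2-fold lower with Aza-TdC than in MASLD (-3.14), and the 5 summed to 38.3 CPM in SD, 365 in MASLD and 59.7 with Aza-TdC. The 13 markers of T and NK cells summed to 11.2, 63.4 and 11.2 CPM, the 15 macrophage markers to 115, 204 and 211 CPM, and the 10 cholangiocyte markers to 106, 198 and 175 CPM. The median mitochondrial share was 0.124%, 0.189% and 0.0812%. Their part in the levels of the 9 genes was not tested.

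**Figure D1:**
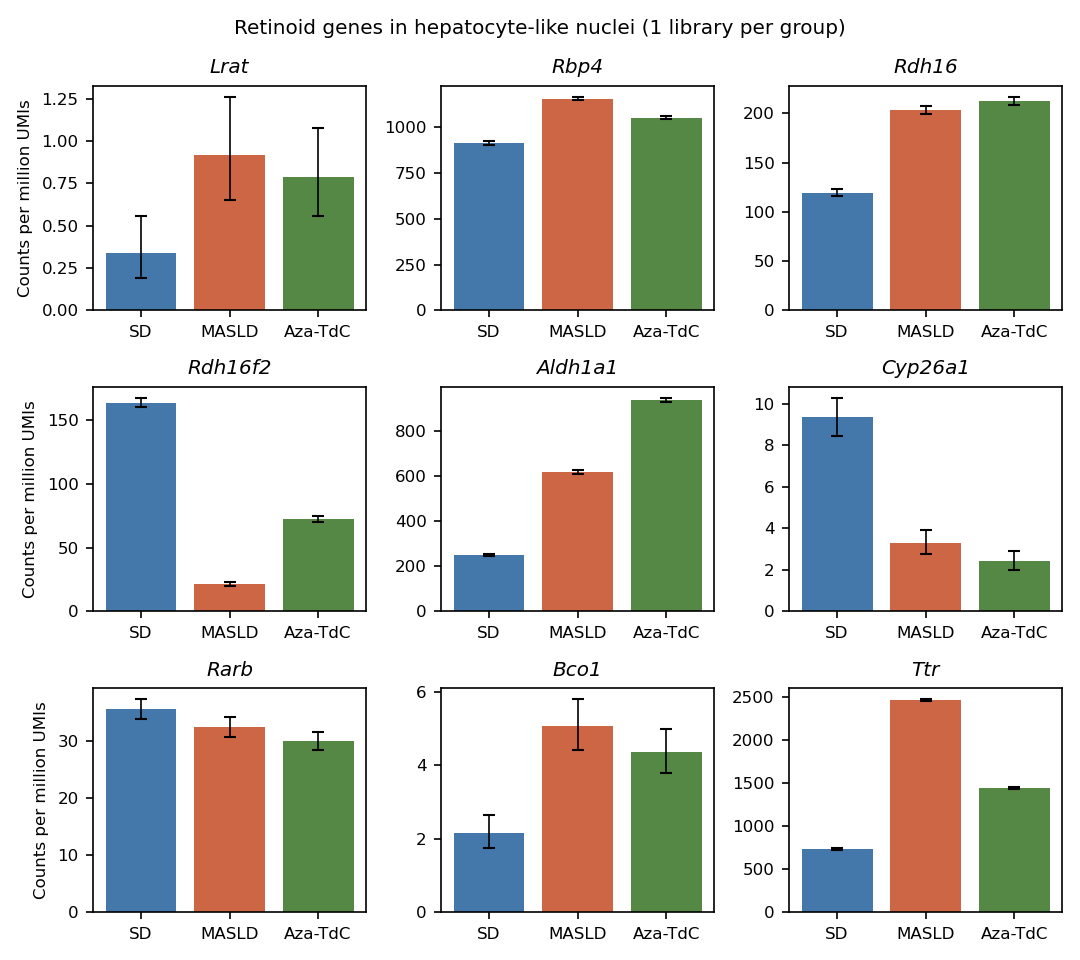
Level of each of the 9 retinoid genes in hepatocyte-like nuclei, in CPM on a linear axis from 0, by library (1 per group); error bars are exact Poisson 95% intervals. Rdh16f2 was lowest in MASLD at 21.5 CPM, Ttr was highest there at 2471 CPM, and Aldh1a1 stood highest in Aza-TdC at 939 CPM.

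Rdh16 and Rdh16f2 are neighbouring genes of the short-chain dehydrogenase family, whose members oxidise retinol and steroids. Rdh16 (chromosome 10, 127801152 to 127846565, plus strand, GRCm38) had 119.5 CPM in SD, 203.5 in MASLD and 212.9 with Aza-TdC. Rdh16f2 (chromosome 10, 127866474 to 127877317, plus strand) had 164.1 CPM in SD, 21.5 in MASLD and 72.9 with Aza-TdC. Thus Rdh16 was low in SD and alike in the other libraries, whereas Rdh16f2 was high in SD, lowest in MASLD and between them in Aza-TdC. The log2 ratio of Rdh16f2 was -2.93 for MASLD against SD (95% interval -3.04 to -2.83) and 1.76 for Aza-TdC against MASLD (1.66 to 1.87), and that of Aza-TdC against SD was -1.17. Rdh16 had a log2 ratio of 0.77 (0.72 to 0.82) for MASLD against SD and of 0.07 (0.02 to 0.11) for Aza-TdC against MASLD.

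As a share of the UMIs of the pair, Rdh16f2 made up 57.9% in SD (exact binomial interval 57.0% to 58.7%), 9.55% in MASLD (8.96% to 10.2%) and 25.5% with Aza-TdC (24.8% to 26.2%). In SD, 2123 of 6858 nuclei held UMIs of Rdh16f2 and none of Rdh16. In MASLD the number was 248 of 6018 nuclei and in Aza-TdC 667 of 6744. The balance of the pair thus lay with Rdh16f2 in SD and with Rdh16 in both libraries on the MASLD diet. The annotated transcripts of the pair share no stretch of 50 bases, while 6.28% of such stretches in Rdh16 and 5.26% in Rdh16f2 also occur in Rdh9, with smaller shares in Rdh1, Rdh7, Rdh19 and Hsd17b6. Rdh9 was higher in MASLD (21.1 CPM) than in SD (4.24), opposite to Rdh16f2 but in the same direction as Rdh16. The part of reads from shared stretches in the levels of the pair was not tested. The Rdh16 gene also spans the pseudogene Rdh18-ps on the same strand, whose reads cannot be told apart from its intron reads.

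Aldh1a1 (chromosome 19, 20492715 to 20643465, plus strand) encodes a cytosolic enzyme that oxidises retinaldehyde to retinoic acid. Its level was 251 CPM in SD, 618 in MASLD and 939 with Aza-TdC, so it stood in the order SD, MASLD, Aza-TdC with no overlap of counting intervals. The log2 ratio was 1.30 (1.27 to 1.33) for MASLD against SD and 0.60 (0.58 to 0.62) for Aza-TdC against MASLD. With each nucleus thinned to 2000 UMIs, 33.5% of SD nuclei, 62.1% of MASLD nuclei and 73.1% of Aza-TdC nuclei held an Aldh1a1 UMI, and without thinning 62.1%, 87.5% and 94.3% did. The close copy Aldh1a7, which shares 3.06% of the 50-base stretches of Aldh1a1, was at 30.5, 124 and 94.4 CPM. Aldh1a1 also overlaps the antisense transcript C730002L08Rik, and the sources used here do not say how strand was treated in counting.

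Cyp26a1 (chromosome 19, 37697798 to 37701536, plus strand) encodes the main enzyme that clears retinoic acid in liver. It was a low transcript, with 414 UMIs in SD, 137 in MASLD and 120 with Aza-TdC over all hepatocyte-like nuclei. These are 9.34, 3.31 and 2.42 CPM, high in SD and low in both libraries on the MASLD diet. The log2 ratio was -1.50 (-1.78 to -1.21) for MASLD against SD and -0.45 (-0.82 to -0.09) for Aza-TdC against MASLD. Its relatives were at still fewer UMIs: Cyp26b1 had 12 in SD, 34 in MASLD and 35 with Aza-TdC, and Cyp26c1 had 43, 17 and 11.

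Rarb (chromosome 14, 16430839 to 16819156, minus strand) encodes the retinoic acid receptor β and shares with Cyp26a1 the promoter repeat shown above. Unlike Cyp26a1 it was nearly level in hepatocyte-like nuclei, at 35.7 CPM in SD, 32.4 in MASLD and 29.99 with Aza-TdC. The log2 ratios were -0.14 (-0.24 to -0.03) for MASLD against SD and -0.11 (-0.22 to -0.01) for Aza-TdC against MASLD. The other retinoic acid receptors were Rara, at 22.1, 24.5 and 21.9 CPM, and Rarg, at 0.947, 1.55 and 2.48 CPM. Rarb overlaps Top2b and Gm48162 on the opposite strand.

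Rbp4 carries retinol out of the hepatocyte, and transthyretin binds that complex in plasma and so limits its loss through the kidney. Rbp4 (chromosome 19, 38116629 to 38125281, minus strand) was at 912 CPM in SD, 1155 in MASLD and 1050 with Aza-TdC, a narrow range with MASLD highest. Its log2 ratio was 0.34 (0.32 to 0.36) for MASLD against SD and -0.14 (-0.16 to -0.12) for Aza-TdC against MASLD. Ttr was at 739 CPM in SD, 2471 in MASLD and 1449 with Aza-TdC, again highest in MASLD but over a wider range. Ttr was higher in MASLD than in SD in every other named class too, from 2.41-fold in mesothelial-like to 7.19-fold in B-like nuclei. In MASLD, endothelial-like nuclei held Ttr at 1.37 of its hepatocyte-like level, while the median of hepatocyte markers there was 0.528. The part of free RNA in the Ttr levels was not tested. For Aza-TdC against MASLD the log2 ratio of Ttr was -0.77 (-0.78 to -0.76), a 1.71-fold lower level. The 2 carriers of the plasma complex therefore differed in size: 1.27-fold for Rbp4 and 3.35-fold for Ttr between MASLD and SD.

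Bco1 encodes the enzyme that cleaves β-carotene into retinaldehyde. In hepatocyte-like nuclei Bco1 (chromosome 8, 117095854 to 117133720, plus strand) had 96 UMIs in SD, 210 in MASLD and 216 with Aza-TdC, or 2.17, 5.08 and 4.36 CPM. Low in SD and about level in the others, its log2 ratio was 1.23 (0.87 to 1.59) for MASLD against SD and -0.22 (-0.50 to 0.06) for Aza-TdC against MASLD. Lrat (chromosome 3, 82892579 to 82903973, minus strand) had only 15, 38 and 39 UMIs in hepatocyte-like nuclei, or 0.338, 0.919 and 0.787 CPM. Its log2 ratio of 1.44 (0.54 to 2.41) for MASLD against SD thus rests on very few molecules. Stellate markers moved both ways in the same nuclei. Of the 14 measured there, 5 were at least 2-fold higher in MASLD, against 13.6% of all genes, and 1 (Reln) lower, against 5.21%. The 5 include Ntrk2, which had no UMIs in stellate-like nuclei. The stellate markers summed to 36.3 CPM in SD, 31.3 in MASLD and 19.25 with Aza-TdC, of which Reln held 19.9, 6.38 and 1.05 CPM. The part of free stellate RNA in the Lrat value was not tested. Lrat overlaps the antisense transcript Rbm46os, and Bco1 spans the pseudogene Gm20694 on its own strand.

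Split into numbered clusters with at least 30 nuclei of a library, Rdh16f2 and Ttr separated SD from MASLD in every cluster. Rdh16f2 ranged from 53.9 to 235.5 CPM over the 4 SD clusters, from 11.5 to 36.3 over the 4 MASLD clusters and from 17.7 to 87.0 over the 6 Aza-TdC clusters. Every SD cluster lay above every MASLD cluster. Ttr spanned 632 to 954 CPM over the SD clusters, below the 1886 to 6561 CPM of MASLD clusters and the 1164 to 2888 CPM of Aza-TdC clusters. Aldh1a1 overlapped between libraries by cluster, at 158 to 584 CPM for SD, 468 to 1055 for MASLD and 676 to 1593 for Aza-TdC. Cluster 17, of 66 MASLD and 108 Aza-TdC nuclei and led by Aqp8, Angptl8 and Fgf21, had the highest Rbp4 and Ttr of either library: Rbp4 was at 2672 and 2037 CPM, and Ttr at 6561 and 2888 CPM. In MASLD it also had the highest Cyp26a1, at 16.6 CPM from 12 UMIs (8.56 to 29.0). That interval overlaps the range of 8.31 to 13.1 CPM over the SD clusters, so the level is not placed above SD. In Aza-TdC cluster 17 held Cyp26a1 at 5.14 CPM from 5 UMIs (1.67 to 12.0).

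Clusters 3 and 18 were high in Glul, the glutamine synthetase of hepatocytes next to the central vein, at 1328 and 2814 CPM. Over their 328, 304 and 168 nuclei of SD, MASLD and Aza-TdC, Aldh1a1 was at 585.5 CPM in SD, 1055 in MASLD and 1593 with Aza-TdC. The order was that of the whole class, with log2 ratios of 0.85 (0.75 to 0.95) and 0.59 (0.51 to 0.68). Rdh16f2 was at 54.2, 11.5 and 21.9 CPM there. Rarb was at 35.4, 25.7 and 10.2 CPM, with a log2 ratio of -1.33 (-2.29 to -0.47) for Aza-TdC against MASLD from 14 against 56 UMIs.

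**Figure D2:**
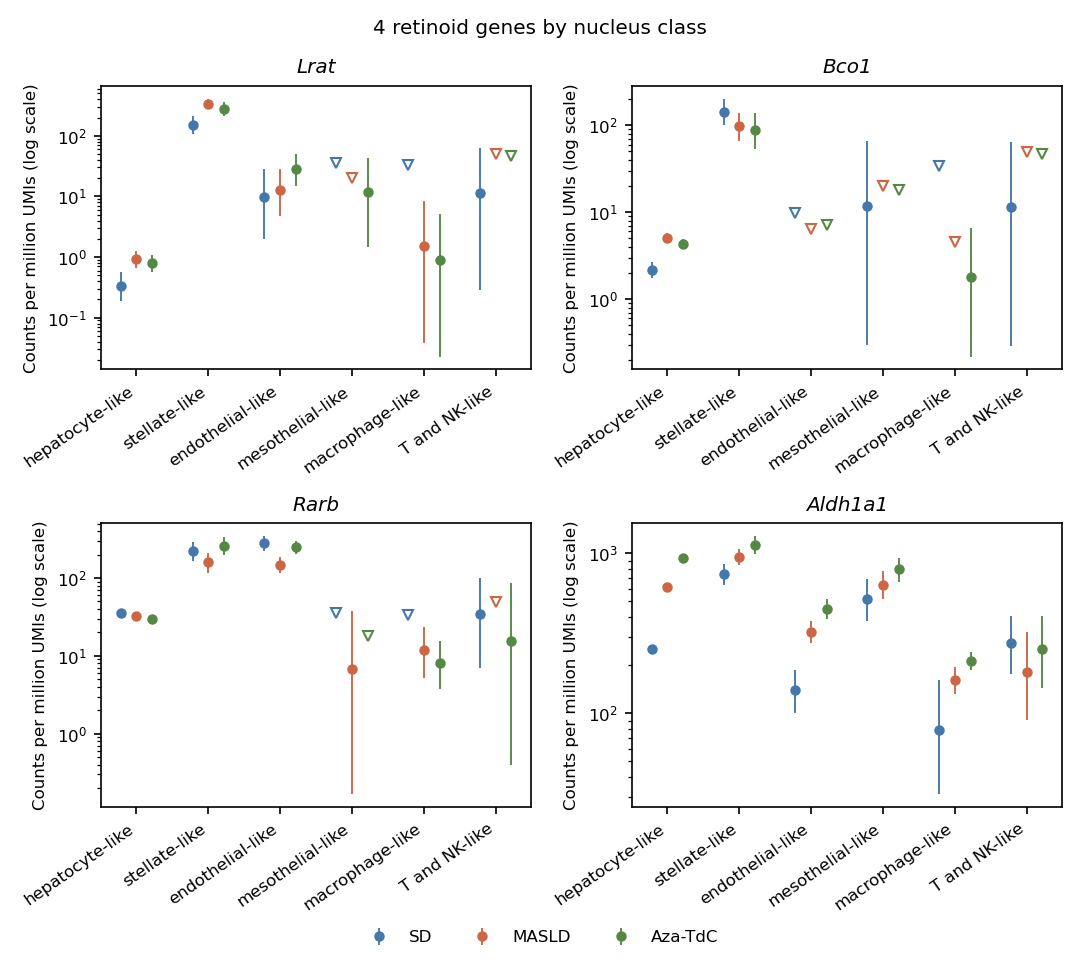
Level of Lrat, Bco1, Rarb and Aldh1a1 in 6 nucleus classes by library, in CPM on a log axis; bars are exact Poisson 95% intervals, and open triangles mark classes with 0 UMIs at the level that 3 counts would give. Lrat and Bco1 stood highest in stellate-like nuclei, Rarb in stellate-like and endothelial-like nuclei.

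Across classes, Lrat was highest in stellate-like nuclei, at 152 CPM in SD, 335 in MASLD and 279 with Aza-TdC. That was 450-fold, 364-fold and 355-fold over hepatocyte-like nuclei. Endothelial-like nuclei held 3, 6 and 12 UMIs, or 9.71, 12.8 and 28.5 CPM, and mesothelial-like nuclei held 0, 0 and 2 UMIs, with 0 UMIs allowing up to 35.3 and 20.1 CPM. Thinned to 2000 UMIs, 21.1%, 43.1% and 29.0% of stellate-like nuclei held an Lrat UMI, against 33.8%, 54.7% and 39.3% unthinned. In thinned macrophage-like nuclei, which should lack the gene, 0 of 26, 1 of 135 and 0 of 219 did, and the counts of 0 allow shares of up to 11.5% and 1.37%. Median depths were 1889 to 2211 UMIs in stellate-like and 2494 to 2871 in macrophage-like nuclei.

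Bco1 was also a stellate-like transcript in these libraries. It had 34, 30 and 19 UMIs in stellate-like nuclei of SD, MASLD and Aza-TdC, or 144, 97.5 and 88.5 CPM, and 0 UMIs in endothelial-like nuclei of all 3 libraries. In the latter, 0 UMIs allow up to 9.71, 6.42 and 7.13 CPM, below the stellate-like level of every library. The stellate-like level was 66.4-fold that of hepatocyte-like nuclei in SD, 19.2-fold in MASLD and 20.3-fold in Aza-TdC. Between libraries the stellate-like Bco1 values overlapped in their counting intervals: the log2 ratio was -0.56 (-1.32 to 0.19) for MASLD against SD and -0.14 (-1.05 to 0.74) for Aza-TdC against MASLD.

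Rarb and Aldh1a1 were shared between classes. Rarb was at 224, 159 and 261 CPM in stellate-like nuclei and at 282, 148 and 247 CPM in endothelial-like nuclei, with overlapping intervals between these classes in each library, and 6.28-fold, 4.91-fold and 8.70-fold over hepatocyte-like nuclei in the former. Macrophage-like nuclei had 0, 8 and 9 Rarb UMIs. Aldh1a1 in stellate-like nuclei was at 740, 946 and 1132 CPM, above hepatocyte-like nuclei by 2.94-fold in SD but by only 1.53-fold in MASLD and 1.21-fold in Aza-TdC. In endothelial-like nuclei Aldh1a1 stood at 0.554, 0.522 and 0.481 of its hepatocyte-like level, close to the median of hepatocyte markers there, which was 0.521, 0.528 and 0.512.

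Hepatocyte RNA was present in all other classes, which bears on Aldh1a1 and on the remaining genes. The 20 hepatocyte markers stood in stellate-like nuclei at a median of 0.505, 0.466 and 0.349 of their hepatocyte-like level, ranging from 0.373 to 1.19 for SD, 0.328 to 1.51 for MASLD and 0.239 to 1.64 for Aza-TdC. Rbp4 in stellate-like nuclei, at 549, 871 and 517 CPM, was at 0.602, 0.754 and 0.493 of its hepatocyte-like level, within that range. Ttr was within it too, at 0.893, 1.19 and 0.803. Rdh16 and Rdh16f2 had at most 23 UMIs there, and Cyp26a1 had 3, 2 and 0. No stellate-like level of these 5 genes is read as made in the stellate cell. Aldh1a1 was above the range of the markers in SD, at 2.94, just above it in MASLD, at 1.53, and within it in Aza-TdC, at 1.21. Less the median marker share of its hepatocyte-like level, 612.5, 658 and 805 CPM of Aldh1a1 remained in SD, MASLD and Aza-TdC. The markers ranged widely around that median, so the part of hepatocyte RNA in these levels is not settled.

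Of Lrat, Bco1, Rarb and Aldh1a1, Lrat differed most between SD and MASLD in stellate-like nuclei. It had 36 UMIs in 77 SD nuclei, 103 in 106 MASLD nuclei and 60 in 84 Aza-TdC nuclei. The level was low in SD and higher, with overlapping intervals, in MASLD and Aza-TdC. The log2 ratio was 1.14 (0.58 to 1.73), or 2.20-fold, for MASLD against SD and -0.26 (-0.74 to 0.21) for Aza-TdC against MASLD. The 5 nuclei with the most Lrat UMIs held 14 of 36 in SD, 26 of 103 in MASLD and 22 of 60 in Aza-TdC, and the most in 1 nucleus were 4, 12 and 9. Of 8 retinoid genes measured in stellate-like nuclei, 2 (Lrat and Ttr) were at least 2-fold higher in MASLD than in SD, against 11.9% of 5519 genes, and 1 (Rdh16f2) lower, against 6.61%. For Aza-TdC against MASLD, 0 of 7 were at least 2-fold higher, against 4.3% of 5376 genes, and 1 (Ttr) lower, against 7.22%. For Aza-TdC against SD, 0 of 8 were at least 2-fold higher, against 8.5% of 4727 genes, and 1 (Rdh16f2) lower, against 8.74%. Ttr and Rdh16f2 enter these counts although their levels here are not read as made in the stellate cell. For MASLD against SD their log2 ratios were 2.15 and -2.58 here and 1.74 and -2.93 in hepatocyte-like nuclei. Apart from them, only Lrat passed 2-fold, in MASLD against SD.

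Other genes of storage and signalling were set beside Lrat in the same nuclei. Dhrs3, which reduces retinaldehyde back to retinol, was at 80.3, 136 and 126 CPM, with a log2 ratio of 0.77 (-0.05 to 1.63) for MASLD against SD. Rdh10, a retinol dehydrogenase, had 4, 6 and 3 UMIs and the retinoic acid hydroxylase Cyp26b1 had 2, 6 and 3. Stra6, Crabp1, Crabp2 and Aldh1a2 had 0 UMIs in all 3 libraries, which allows up to 9.75 CPM in MASLD, the deepest. The 17 stellate markers measured had a median log2 ratio of 0.05 for MASLD against SD, with Dcn, Ecm1, Col3a1 and Col1a2 at least 2-fold higher.

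Several measures moved with the stellate-like values. Stellate-like nuclei had a median mitochondrial share of 0.317% in SD, 1.29% in MASLD and 0.356% with Aza-TdC, and the 5 red blood cell markers summed to 50.7, 835 and 177 CPM. Limited to nuclei with at most 1% mitochondrial UMIs, which left 77, 48 and 71 stellate-like nuclei, Lrat was at 152, 257 and 263 CPM, and its log2 ratio for MASLD against SD was 0.76 (0.07 to 1.45), under 2-fold. The 14 endothelial markers summed to 385, 1225 and 2222 CPM in stellate-like nuclei, against 14230, 12480 and 12360 CPM in endothelial-like nuclei, with at most 1 of the 14 at 0. Lrat was low in endothelial-like nuclei, but Rarb was as high there. The part of endothelial RNA in the stellate-like Rarb values was not tested.

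By CPM, Rarb in both of these classes was lowest in MASLD. In endothelial-like nuclei, with 87, 69 and 104 UMIs, the log2 ratio was -0.93 (-1.41 to -0.46) for MASLD against SD and 0.74 (0.29 to 1.20) for Aza-TdC against MASLD. In stellate-like nuclei, with 53, 49 and 56 UMIs, it was -0.49 (-1.08 to 0.10) and 0.71 (0.13 to 1.30), and the 5 nuclei with the most Rarb held 24 of the 56 UMIs in Aza-TdC. The hepatocyte-like values given above were within 0.14 of 0 on the same scale. Thinned to 2000 UMIs, 34.4%, 23.3% and 23.8% of endothelial-like nuclei in SD, MASLD and Aza-TdC held a Rarb UMI. In stellate-like nuclei 34.6%, 25.5% and 26.3% did. By this measure MASLD and Aza-TdC were alike in both classes.

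The endothelial-like class differed between libraries in other ways too. Its median mitochondrial share was 0.341% in SD, 1.98% in MASLD and 0.476% with Aza-TdC, and the red blood cell markers summed to 77.7, 880 and 200 CPM, both highest where Rarb was lowest. Cluster 6, led by Vwf, held 13 of 115 nuclei in SD, 5 of 181 in MASLD and 38 of 183 with Aza-TdC, and cluster 5 the rest. In cluster 5 alone the log2 ratio of Rarb was -1.01 (-1.51 to -0.52) for MASLD against SD and 0.42 (-0.11 to 0.95) for Aza-TdC against MASLD, the latter with an interval that includes 0. In nuclei with at most 1% mitochondrial UMIs, which left 113, 50 and 140, it was -1.28 (-2.04 to -0.58) and 0.75 (0.02 to 1.53). The part of red blood cell RNA was not tested.

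Position along the liver lobule was read from a score of pericentral minus periportal genes that holds none of the 9, cut into 10 bins of equal size in each library. In bin 10 over bin 1 the check gene Glul was 27.6-fold, 53.2-fold and 66.5-fold higher in SD, MASLD and Aza-TdC, and Cyp2f2 was 17.1-fold, 27.8-fold and 20.4-fold lower. The bins are ranges of a score, with 142, 57 and 92 nuclei within 0.05 of the lower cut of bin 10. Aldh1a1 was pericentral in every library, going between bins 1 and 10 from 135 to 482 CPM in SD, 437 to 970 CPM for MASLD mice and 639 to 1511 CPM for Aza-TdC mice. In all 10 bins it was at least 2-fold higher in MASLD than in SD, and in all 10 it was higher in Aza-TdC than in MASLD.

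**Figure D3:**
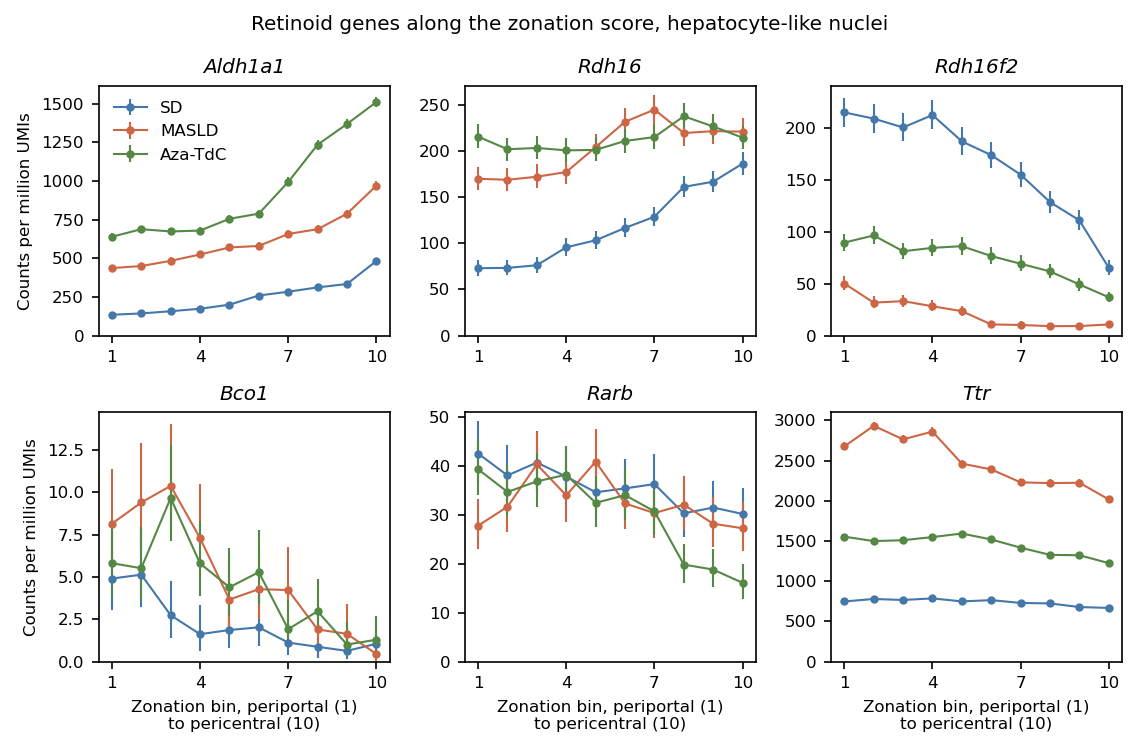
Level of 6 retinoid genes in hepatocyte-like nuclei across 10 zonation bins (x axis, bin 1 periportal and bin 10 pericentral), in CPM from 0 on the y axis, with 1 line per library and exact Poisson 95% intervals. Rdh16 sloped upward in SD, from 73.0 to 186 CPM, and was alike in the end bins of Aza-TdC, while Rdh16f2 sloped downward in all 3 libraries.

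In SD and MASLD the pair of dehydrogenases ran in opposite directions between the ends of the lobule. Rdh16 was pericentral in SD, 73.0 CPM in bin 1 and 186 in bin 10, a log2 ratio of 1.35 (1.16 to 1.54). In MASLD it was 170 and 221 CPM, a log2 ratio of 0.38 (0.24 to 0.52), and in Aza-TdC 216 and 215 CPM, a log2 ratio of -0.01 (-0.13 to 0.11). The difference between these end bins was therefore large in SD, small in MASLD and not detectable in Aza-TdC. The interval for each library lay outside those of the others. The bins between were not level: MASLD was highest in bin 7, at 245 CPM (230 to 261). Aza-TdC was highest in bin 8, at 238 CPM (225 to 252), and lowest in bin 4, at 201 CPM (189 to 214). Rdh16f2 was periportal throughout, 3.29-fold higher in bin 1 than in bin 10 in SD, 4.69-fold in MASLD and 2.43-fold in Aza-TdC. MASLD lay at least 2-fold below SD in all 10 bins, and Aza-TdC at least 2-fold above MASLD in 9.

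Bco1 was periportal as well, with 4.91 CPM in bin 1 and 1.06 in bin 10 in SD, 8.15 and 0.455 in MASLD, and 5.82 and 1.30 with Aza-TdC, although bin 10 held only 5, 2 and 7 UMIs. Cyp26a1 showed no slope beyond counting error in any library, and it was lower in MASLD than in SD in all 10 bins. Ttr sloped weakly, with bin 1 over bin 10 at 1.12-fold, 1.33-fold and 1.27-fold, and its MASLD level was more than 2-fold that of SD in each of the 10 bins. Rarb in MASLD was alike at the ends, at 27.8 CPM in bin 1 and 27.3 in bin 10, and higher between them, up to 40.3 CPM in bin 3 (34.4 to 47.0) and 40.9 in bin 5 (34.95 to 47.6). In Aza-TdC it was at 39.4 and 16.1 CPM, and in SD at 42.6 and 30.2 CPM.

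The Rarb values by bin differed in sign between the ends of the lobule for Aza-TdC against MASLD. The log2 ratio was 0.50 (0.16 to 0.84) in bin 1, whereas in bins 8, 9 and 10 it was -0.69, -0.58 and -0.76 (-1.17 to -0.35 in bin 10). Bins 2 to 7 lay between -0.33 and 0.17. The class-wide ratio of -0.11 averages over these bins.

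The wider retinoid pathway was followed in 69 other genes in 8 lists, of which 56 had at least 20 UMIs over both libraries in each comparison. In hepatocyte-like nuclei 18 of the 56 were at least 2-fold higher in MASLD than in SD, against the 13.6% of all genes given above, and 4 were lower, against 5.21%. Their median log2 ratio was 0.36. For Aza-TdC against MASLD 2 of the 56 were higher (Pnpla3 and Fabp5), against 3.09% of all genes, and 2 lower (Rarres1 and Tgfb2), against 5.14%. The median was -0.06. The count higher in MASLD than in SD lies above the share of all genes, and the other counts lie near theirs. With 1 library per group, none of these counts is read as a result about the pathway. The same shares of all genes, by comparison, apply to the counts by list below.

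Genes that make or break retinyl esters and other neutral lipids held 3 of 10 at least 2-fold higher in MASLD than in SD: Pnpla3, Lipa and Lpl. Pnpla3, a lipid-droplet hydrolase that acts on triglyceride and retinyl ester, was at 3.54 CPM in SD, 35.7 in MASLD and 124 with Aza-TdC. It stood in the same order as Aldh1a1, with a log2 ratio of 1.79 (1.71 to 1.88) for Aza-TdC against MASLD. Lipa, the lysosomal acid lipase, was at 43.3, 195 and 172 CPM. The carboxylesterase Ces1d was at 778, 1152 and 2053 CPM, a log2 ratio of 0.83 (0.82 to 0.85) for Aza-TdC against MASLD. No gene of this list was at least 2-fold lower in either comparison.

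Among 17 measured retinol and retinaldehyde oxidoreductases 6 were at least 2-fold higher in MASLD than in SD (Rdh9, Rdh14, Rdh19, Dhrs9, Hsd17b6 and Retsat) and none was 2-fold lower. The other 11 lay within 2-fold, among them Dhrs3, which was lower in MASLD than in SD, at 87.8 against 116 CPM, with a log2 ratio of -0.41 (-0.47 to -0.35). Hsd17b6, which oxidises steroids and retinol, had a log2 ratio of 2.20 (2.09 to 2.30) and Rdh9 of 2.31 (2.08 to 2.55). Retsat, which saturates retinol, was at 47.1 CPM in SD, 126 in MASLD and 154 with Aza-TdC. For Aza-TdC against MASLD none of the 17 passed 2-fold. Rdh9 came closest, with a log2 ratio of -0.92 (-1.08 to -0.77).

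Of 5 retinaldehyde oxidases measured, Aldh1a7 was at least 2-fold higher in MASLD than in SD, with a log2 ratio of 2.02, and Aox3 at least 2-fold lower, with -1.24 (-1.28 to -1.20). All 3 genes of retinoic acid breakdown were past 2-fold, Cyp26b1 and Cyp2c39 higher and Cyp26c1 lower. Cyp2c39, a cytochrome P450 that hydroxylates retinoic acid, was at 1.42, 9.31 and 5.99 CPM, with a log2 ratio of 2.71 (2.32 to 3.12) for MASLD against SD, opposite to Cyp26a1. Carotenoid handling held Bco2, which cleaves carotenoids off centre, at a log2 ratio of 0.35, below that of Bco1 at 1.23. Of the 2 measured genes of that list, Cd36, a scavenger receptor that takes up fatty acids and carotenoids, was the one past 2-fold. It was at 8.98 CPM in SD, 342 in MASLD and 208 with Aza-TdC, with a log2 ratio of 5.25 (5.11 to 5.40) for MASLD against SD and of -0.72 (-0.76 to -0.68) for Aza-TdC against MASLD. The lipase Lipc was at a log2 ratio of 0.80 (0.74 to 0.85) for Aza-TdC against MASLD. Also named by rule, Ces1e, Scarb1, Nr2f2, Rai14 and Aldh8a1 were within 2-fold between MASLD and SD, with log2 ratios of 0.83, 0.54, 0.36, 0.16 and -0.27. Of 6 uptake and binding genes measured, 2 (Lrp2 and Fabp5) were at least 2-fold higher and 1 (Lrp1) lower. The endocytic receptor Lrp1 had a log2 ratio of -1.26 (-1.30 to -1.23) and Stra6l, a liver receptor for Rbp4, of -0.77 (-0.85 to -0.69).

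Rxra, the main partner of the retinoic acid receptors in liver, was at 160.5 CPM in SD, 107 in MASLD and 98.3 with Aza-TdC, a log2 ratio of -0.58 (-0.63 to -0.53) for MASLD against SD. Rxrg, another retinoid X receptor, was past 2-fold, with a log2 ratio of 1.14 for MASLD against SD. Of 5 measured genes with retinoic acid responses in other systems, Rarres1 and Tgm2 were at least 2-fold higher in MASLD. Rarres1 was at 7.01, 54.0 and 15.6 CPM, and its log2 ratio of -1.80 (-1.92 to -1.68) for Aza-TdC against MASLD made it the lowest of the named genes in that comparison. Rarres2 was at 26.9, 49.5 and 26.0 CPM.

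**Figure D4:**
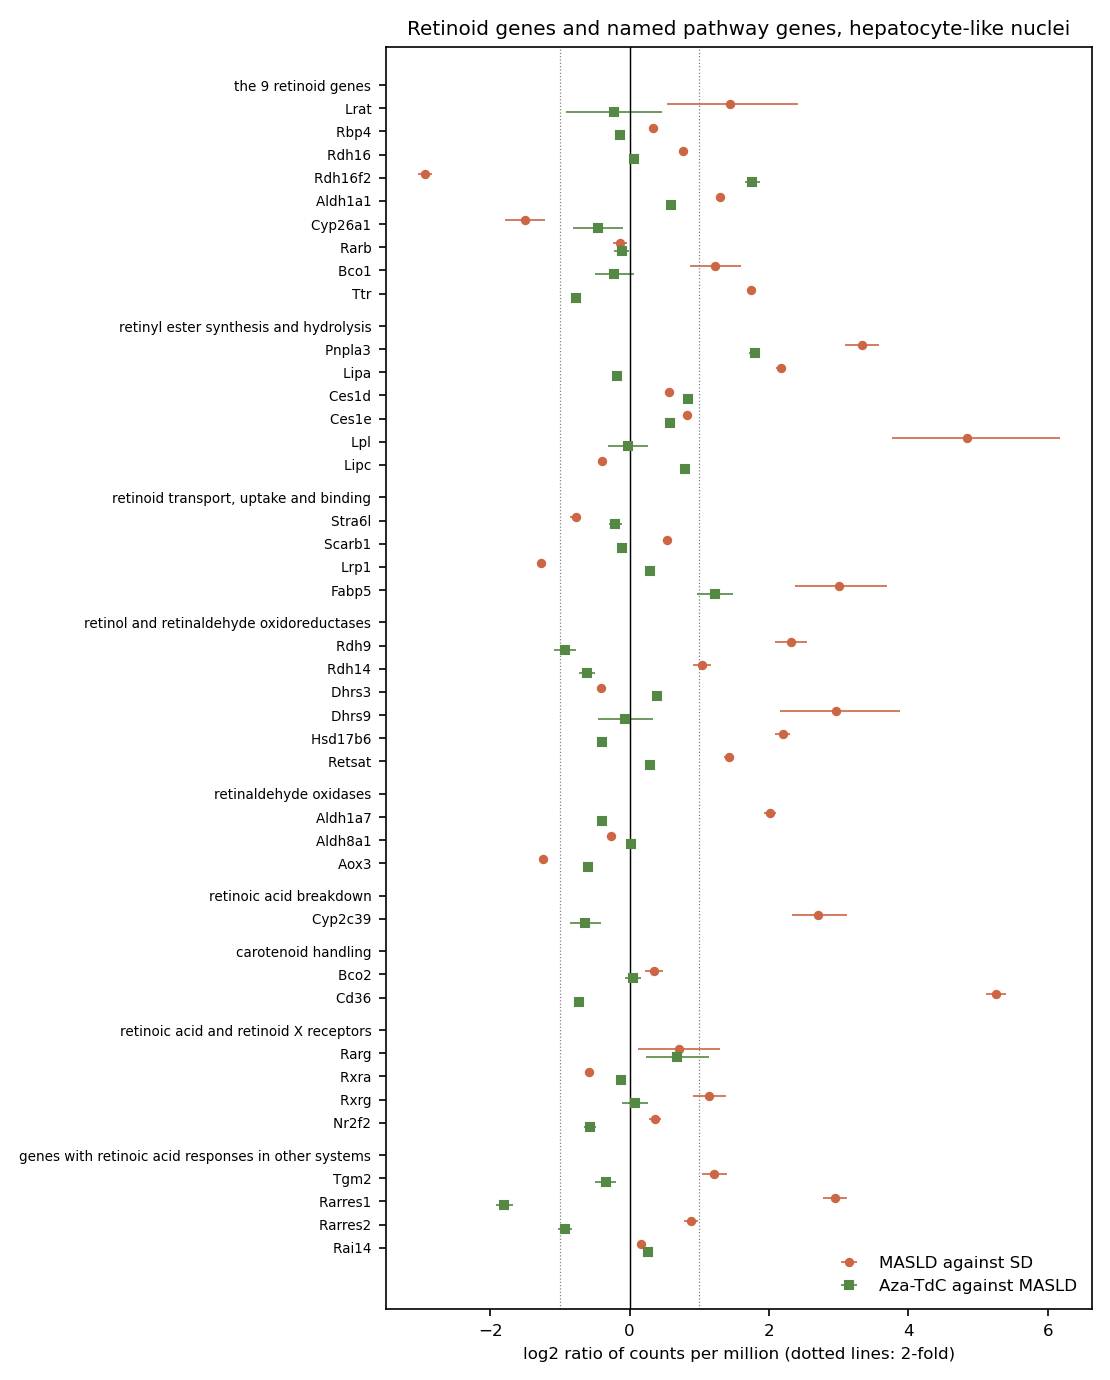
Log2 ratios of CPM in hepatocyte-like nuclei for the 9 retinoid genes and the reported pathway genes named by rule, grouped by list; circles are MASLD against SD and squares Aza-TdC against MASLD, bars are 95% counting intervals and dotted lines mark 2-fold. Most circles lie to the right of 0, Rdh16f2 lies farthest left at -2.93, and only Rdh16f2, Pnpla3, Fabp5 and Rarres1 of the genes drawn have squares past 2-fold.

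The genes most like each member in pattern were ranked by Pearson's r over the 10 bins of 3 libraries, which share libraries, depth and the score, so the 30 points are not independent. Among 10788 genes Aldh1a1 was closest to Il1r1 (r = 0.99), Ugt2b35 and Pon3, Ttr to Mup20 (0.993), Dbi and Cpeb4, and Rdh16f2 to Serpina3m (0.975), Slc38a2 and Ubr2. Rdh16 was closest to Ppara (0.963), Wwox and Pfkfb1, Rbp4 to Apoe (0.969), Tmem205 and Nudt7, and Bco1 to Hsd17b6 (0.928), Chrm3 and Hsd17b13. Hsd17b13 is one of the periportal genes of the score that sets the bins, so its likeness to Bco1 is partly built in. Cyp26a1 was closest to Ppp1r10 (0.94), Plekha6 and Tacc1, and Rarb, with the weakest likeness, to Eva1a (0.871), Scpep1 and Epb41. Over 14 sums by class and library Lrat was closest to Colec11 (0.985), Hs6st3 and Robo2, and Colec11 is one of the genes by which the stellate-like cluster was named.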

How the data were processed

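Per the labels' protocols, each library was made from DAPI-sorted nuclei of 120 mg liver with 10x Genomics 3' reagents. The authors deposited unnormalized UMI counts, 1 per gene and barcode, and the file headers name Cell Ranger 6.1.2. The submitters' processing notes also list Seurat 4.4.0, mm10 and GRCm38, with no step attached. The sources used here do not say whether introns were counted, how strand was used, or whether free RNA or doublets had been taken out.

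Barcodes needed 500 UMIs, 300 genes and a mitochondrial share of no more than 5% to be kept (7139 SD, 6726 MASLD and 7591 Aza-TdC, leaving out 0, 202 and 7). Total UMIs were 45162618, 43569644 and 51789068. No doublet caller was run; leaving out the deepest 5% of nuclei was an alternative. The 3 libraries were clustered without integration (scanpy 1.11.5, leidenalg 0.10.2; 3000 variable genes without the retinoid and pathway genes, 30 components, 15 neighbours, resolution 1). A cluster took the non-hepatocyte class whose markers had the highest median log2 ratio, if at least 3, and otherwise was hepatocyte-like if at least 3 hepatocyte markers reached 0.25 of their highest level; a shallow cluster with none of its class's markers among its 10 leading genes stayed unnamed (cluster 11, with 2, 115 and 164 nuclei). This naming rule was set after clusters had been seen, and the retinoid genes, pathway lists and markers were chosen with earlier results of these data known.

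UMIs were summed per class and library and scaled to CPM. Levels carry exact Poisson 95% intervals, ratios exact conditional binomial intervals and shares exact Clopper-Pearson intervals (scipy 1.17.1), and a count of 0 was given the level of 3 counts. UMIs are molecules, but intervals cover counting error only. Genes with at least 20 UMIs over both libraries entered the counts of 2-fold differences. The script for ratios was tested on simulated counts. Named genes were all 9 retinoid genes, a set of 11 storage genes in stellate-like nuclei, up to 4 genes per pathway list and comparison that had 50 UMIs or more in the library where they were higher, with the interval bound nearest 0 the farthest from it, the 3 genes most alike by Pearson's r, and the genes of counts of 6 or fewer, which were named after their values were seen, as were Aldh1a7, the Cyp26 relatives, Rara and Rarg as relatives of a member. Gene coordinates are from GENCODE M21 (GRCm38), where 32158 of 32285 IDs were found, and promoter sequences from RefSeq. Some genes of the storage and receptor lists are not reported here.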

Additional observations from a re-analysis of the deposited data

Results flagged for a closer look

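The retinoic acid receptor gene Rarb differed in direction between classes for Aza-TdC against MASLD. Its log2 ratio was 0.71 in stellate-like nuclei and 0.74 in endothelial-like nuclei, with counting intervals above 0, and -0.11 in hepatocyte-like nuclei, with an interval below 0. The last interval, -0.22 to -0.01, holds the median of -0.09 over all genes of hepatocyte-like nuclei. The hepatocyte-like value is therefore not read as a fall beyond that of genes in general. In the larger endothelial-like cluster alone the Rarb ratio was 0.42, with an interval that includes 0. By thinned shares of nuclei with a Rarb UMI, MASLD and Aza-TdC were alike in stellate-like and endothelial-like nuclei. The difference between classes was not tested, since each group had 1 library. Rdh16 was at a log2 ratio of -1.81 in mesothelial-like nuclei and of 0.07 in hepatocyte-like nuclei for the same comparison, again with intervals on opposite sides of 0, and this difference was not tested either. Mesothelial-like nuclei, 50 in MASLD and 58 in Aza-TdC, held 22 and 7 UMIs of Rdh16, and hepatocyte markers stood there at a median of 0.444 and 0.390 of their hepatocyte-like level.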

How the results depend on the processing

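No paired analysis was possible because each group had 1 library. Alternatives were other filters on nuclei, clustering with all variable genes, resolution 2, classes from each nucleus's own markers, the deepest 5% of nuclei left out, scaling by the median of gene ratios, and other minimum counts. For the 9 genes in hepatocyte-like nuclei, each comparison had 63 alternative log2 ratios, and all 63 kept their direction and their side of 2-fold in both comparisons. Of these, 9 for MASLD against SD and 8 for Aza-TdC against MASLD lay outside the interval of the reported value. The count of retinoid genes past 2-fold was 6 for MASLD against SD, or 5 with a minimum of 100 UMIs, which leaves out Lrat, and 1 for Aza-TdC against MASLD under each of these alternatives. The count of pathway genes past 2-fold was 22 for MASLD against SD and ranged from 18 to 29. The count of pathway genes past 2-fold for Aza-TdC against MASLD was 4 as reported and 12 (6 higher and 6 lower) of 65 with a minimum of 1 UMI, since genes with few counts then enter. The log2 ratio of Lrat in stellate-like nuclei for MASLD against SD was 1.14 as reported, ranged from 0.76 to 1.24 over the other settings listed above, and was 1.03 after subtraction of hepatocyte RNA. For Aza-TdC against MASLD it was -0.26 as reported, from -0.55 to 0.03 over the other settings listed above, and -1.04 when stellate-like nuclei were limited to the lowest of the libraries' median mitochondrial shares. That alternative was chosen after seeing the data, left 39 nuclei of SD, 7 of MASLD and 36 of Aza-TdC, and gave 1.72 for MASLD against SD. The cause was not tested. Rarb in endothelial-like nuclei was also computed, after seeing the data, in the larger cluster alone and at low mitochondrial share, and it kept its direction in both comparisons. Thinning moved 34 of 54 shares of nuclei with a UMI out of their intervals, so unthinned shares reflect depth.

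Depth limits the stellate-like values: the class held 214699 to 307734 UMIs per library, so 0 UMIs allow a level of up to 9.75 to 14.0 CPM. Free hepatocyte RNA limits every level in the smaller classes, and mice, library and treatment cannot be told apart.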
